A study of Homo sapiens with 8 samples.

Results

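The 44 genes described here serve protein folding and quality control in the endoplasmic reticulum, and the list also holds the sensors of the unfolded protein response. They were chosen by gene symbol, as sensors, chaperones, folding enzymes, degradation components, translocon subunits and signal peptidase subunits, and were found among the 60230 genes of the count table by their Ensembl identifiers. The cells were HepG2, an established line from a human hepatocellular carcinoma, in a derivative that overexpresses the drug-metabolizing enzyme CYP3A4 and was kept in blasticidin. In all 4 groups the same cells were exposed for 24 h, either to 0.2% DMSO as control or to compound 4, 5 or 6, each at its own IC50 concentration, with 2 replicates per group and 8 samples in all. The 3 compounds are antioxidants used in plastics and share a bisphenol core: compounds 4 and 6 have a methylene bridge, with tert-butyl and methyl groups on the rings of compound 4 and cyclohexyl and methyl groups on those of compound 6, whereas compound 5 has an ethylidene bridge and tert-butyl groups only. The question addressed was which of these genes responded to each compound. Replicates 1 and 2 are called day 1 and day 2 in the labels, which do not state that they came from separate cultures, so the p-values measure the spread between these samples. The labels mark replicate 1 of compounds 4 and 5 as merged, without stating what was merged.

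Secretory and membrane proteins enter the endoplasmic reticulum through the SEC61 channel, lose their signal peptide, and fold with the help of chaperones and disulfide-forming enzymes, while proteins that fail to fold are returned to the cytosol and degraded. When unfolded proteins accumulate, the sensors IRE1 (gene ERN1), ATF6 and PERK (gene EIF2AK3) activate transcription programs that raise folding and degradation capacity and lower translation. Hepatocytes secrete large amounts of plasma proteins and depend on this machinery.

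The total counts ranged from 9472261 to 13308975 per sample, and levels are given in CPM, counts scaled to the library total after adjustment by the TMM factor. The least amount regarded as detectable, 3 counts, was worth 0.225 to 0.317 CPM of the unadjusted totals, by counting error only. Mitochondrially encoded genes took 4.91% and 5.12% of the counts in DMSO and between 5.31% and 6.21% in the 6 treated samples, all above DMSO. All 8 hepatocyte markers were detected in every group, and their summed level was 39354 to 41161 CPM in DMSO, 30764 to 30830 with compound 4, 32615 to 32834 with compound 5, and 31343 to 37692 with compound 6. These sums join genes that differed in direction and between replicates: after compound 4, ALB was at 12915 and 15080 CPM beside 18489 and 16375 in DMSO, APOB was at 6521 and 2889 beside 5679 and 7468, and TTR was at 126 and 149 beside 99.3 and 74.6. ALB, AFP, APOA1 and TF were below both DMSO samples in all 6 treated samples. With compound 5, SERPINA1 and HNF4A were also below DMSO in both replicates, while APOB and TTR overlapped DMSO. Of 3 leukocyte markers PTPRC and CD163 were at 0 in all samples, and CD68, a lysosomal protein, was at 38.5 and 27.2 CPM in DMSO, 56.3 and 57.6 after compound 4, 39.1 and 35.6 after compound 5, and 50.6 and 47.3 after compound 6. The CD68 levels after compounds 4 and 6 were thus above both DMSO samples, while the summed levels of the endothelial and fibroblast markers did not exceed 2.06 and 0.171 CPM. The part of these differences in the results was not tested. Fewer cells of a type and less RNA per cell cannot be told apart in such bulk samples.

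Of the 44 genes, 43 passed the filter on low counts and were tested, and DERL3 had 0 counts in all 8 samples. The 44 genes together took 1.52% and 1.49% of the counts in DMSO, 1.42% and 1.53% after compound 4, 1.76% and 1.72% after compound 5, and 1.42% and 1.31% after compound 6. The highest share was that of compound 5, in both replicates. With compound 5, 20 of the 43 tested genes (46.5%) were called higher than in DMSO and 0 lower, at a Benjamini-Hochberg adjusted p under 0.05 in the quasi-likelihood test of edgeR. Of all 13404 genes tested, 28.1% were called in this comparison, 13.9% higher and 14.2% lower. DESeq2 also called 20 higher and 0 lower, beside 13.4% and 9.23% of all genes to which it gave an adjusted p. At an unadjusted p under 0.05 edgeR gave 22 higher (51.2%) and 1 lower (2.33%), beside 20% and 21.5% of all genes. The median log2 fold change was 0.31 over the 43 genes and -0.03 over all genes. With compound 4, 4 genes were called higher and 1 lower, which is 11.6% of those tested beside 11.9% of all genes (6.5% higher and 5.42% lower), a share near the background. With compound 6, 1 gene was called higher and 0 lower, beside 2.8% and 1.6% of all genes, or 4.4% in either direction.

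**Figure D1:**
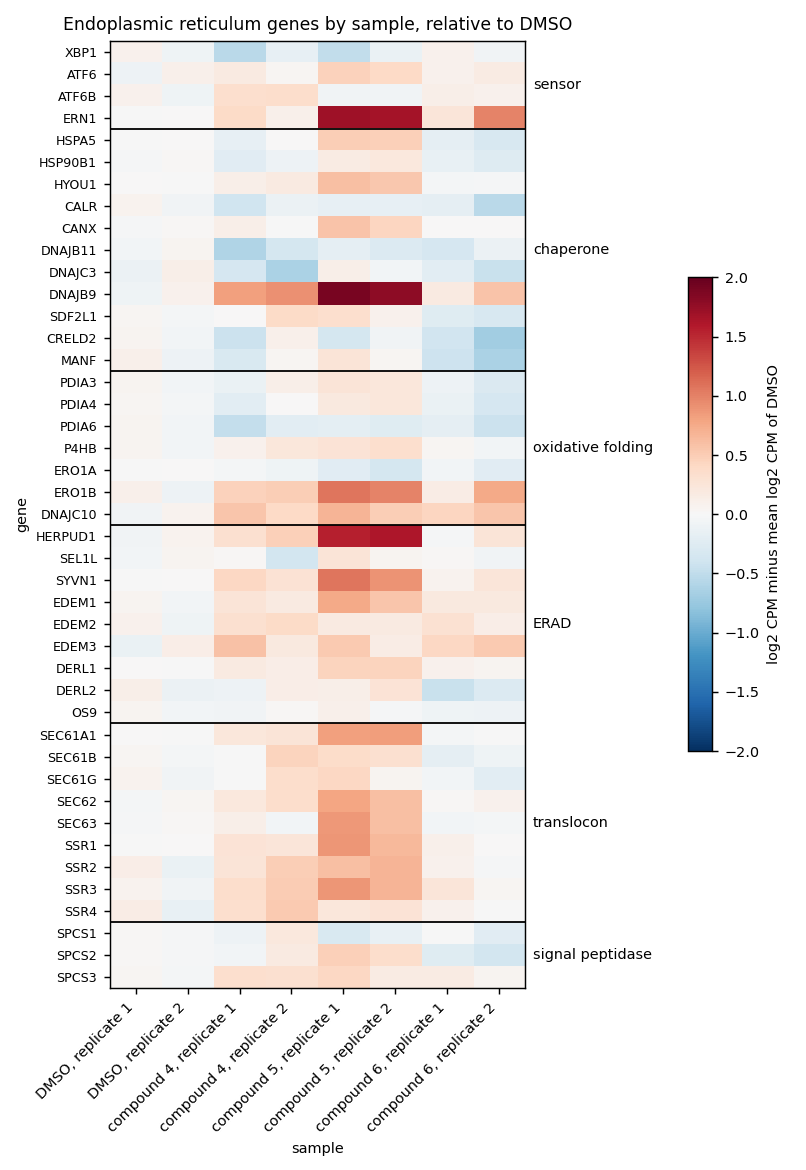
Level of each tested gene in each of the 8 samples, as the log2 CPM minus the mean log2 CPM of the DMSO samples (colour scale), with genes ordered by function. ERN1, DNAJB9 and HERPUD1 are the darkest rows, and both compound 5 samples show them.

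4 of the genes are shown here by their promoter, since their start regions carry ERSE or ERSE-II, elements through which the unfolded protein response acts, and they had the largest absolute log2 fold changes against DMSO among the genes with either of these elements (for CRELD2 this was a value with compound 6 that was not called). The elements searched on both strands were the endoplasmic reticulum stress element ERSE (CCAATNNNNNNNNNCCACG), a site known for ATF6 together with the CCAAT-binding factor NF-Y, its variant ERSE-II (ATTGG and CCACG separated by 1 base), the core of the XBP1 element UPRE (TGACGTGG), and the amino acid response element AARE bound by ATF4 (TGATGNAAT). Promoter windows of RefSeq on GRCh38.p14, from 250 bases before to 50 bases after each start, were found for 40 of the 44 genes. ERSE or ERSE-II occurred in the windows of 11 of these 40 genes (27.5%) and of 44 of 27305 genes in the whole table (0.161%), that is in 0.131% of all 35116 windows. Both the list and the elements were chosen for the unfolded protein response, so these shares describe the list and are not a test. The genes with ERSE were XBP1, HSPA5, HSP90B1, CALR, CANX, CRELD2, PDIA6 and ERO1B, and those with ERSE-II were HYOU1, SDF2L1 and HERPUD1. The UPRE core was found in HYOU1, where it overlaps an ERSE-II, DNAJC10, SEC62, SSR3 and SSR4. These are 12.5% of the 40 genes, beside 0.927% of all genes. The AARE was found in 0 of the 40 genes, beside 1.22% of all genes. Of all windows, 0.729% held the UPRE core and 0.991% the AARE. The 250 bases before the start are given below 5′ to 3′ on the strand of the gene, with the ERSE or ERSE-II match in capitals, read on either strand.
HERPUD1 (chr16:56931892-56932141, plus strand): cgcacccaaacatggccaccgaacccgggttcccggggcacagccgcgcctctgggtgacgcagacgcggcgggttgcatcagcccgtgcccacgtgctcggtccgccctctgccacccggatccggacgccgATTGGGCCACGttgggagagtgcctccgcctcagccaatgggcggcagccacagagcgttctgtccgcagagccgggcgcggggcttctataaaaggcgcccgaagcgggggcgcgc
HYOU1 (chr11:119057206-119057455, minus strand): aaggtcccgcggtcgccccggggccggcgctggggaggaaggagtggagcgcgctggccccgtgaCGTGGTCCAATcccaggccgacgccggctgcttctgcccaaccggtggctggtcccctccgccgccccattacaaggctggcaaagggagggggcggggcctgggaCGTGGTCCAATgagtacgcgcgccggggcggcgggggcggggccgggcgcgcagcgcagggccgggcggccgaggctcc
ERO1B (chr1:236281959-236282208, minus strand): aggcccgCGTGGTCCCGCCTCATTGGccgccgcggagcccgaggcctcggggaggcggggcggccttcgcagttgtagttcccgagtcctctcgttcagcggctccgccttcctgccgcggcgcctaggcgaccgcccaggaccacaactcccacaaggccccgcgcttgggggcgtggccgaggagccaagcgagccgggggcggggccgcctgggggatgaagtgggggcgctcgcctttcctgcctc
CRELD2 (chr22:49918384-49918633, plus strand): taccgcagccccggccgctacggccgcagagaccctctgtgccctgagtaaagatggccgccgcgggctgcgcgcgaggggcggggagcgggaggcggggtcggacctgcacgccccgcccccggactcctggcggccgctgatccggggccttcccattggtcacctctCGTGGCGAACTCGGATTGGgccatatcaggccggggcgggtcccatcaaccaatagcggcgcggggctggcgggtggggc

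In HERPUD1 the ERSE-II lay from -117 to -107 relative to the start, and in HYOU1 a first ERSE-II lay from -185 to -175 and a second from -79 to -69. The ERSE of CRELD2 lay from -80 to -62 and that of ERO1B from -243 to -225. A match is a description of the letters in this window. Of the 19 matched genes called higher with compound 5, 5 had an ERSE or ERSE-II, and of the 21 matched genes not called, 6 had one. The UPRE core occurred in 4 of these 19 genes and in 1 of these 21. These splits were not tested.

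The sensors and their transcription factors differed among themselves. ERN1, which encodes the kinase and endoribonuclease IRE1 (ENSG00000178607, GRCh38 chr17:64039142-64130819), was at 25.4 and 25.7 CPM in DMSO, 33.2 and 27.5 after compound 4, 83.2 and 80.8 after compound 5, and 30.1 and 50.8 after compound 6. Both compound 5 samples lay above all 6 other samples, and the compound 6 replicates differed widely. The log2 fold change with compound 5 was 1.68 (SE 0.20, adjusted p = 3.51e-04), a 3.21-fold increase. With compound 6 it was 0.67 (SE 0.20, adjusted p = 0.0905, but 0.0398 by DESeq2 and 2.72e-04 without the filter), and with compound 4 it was 0.24 (adjusted p = 0.491).

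ATF6, a membrane-bound transcription factor released by cleavage, was at 39.4 and 45.1 CPM in DMSO, 47.9 and 43.5 after compound 4, 57.7 and 55.3 after compound 5, and 44.6 and 47.1 after compound 6. It rose with compound 5, by 0.42 on the log2 scale (SE 0.11, adjusted p = 0.0202), while the compound 4 and compound 6 samples were close to the DMSO samples. This call was lost without DMSO replicate 1 (adjusted p = 0.169), without compound 5 replicate 1 (0.103) and without compound 5 replicate 2 (0.0746), and with scaling by library size alone (0.0641). Its homologue ATF6B was at 57.5 and 51.0 CPM in DMSO, 68.6 and 69.4 after compound 4, 51.3 and 51.8 after compound 5, and 58.8 and 57.8 after compound 6. The compound 4 samples were the highest, with a log2 fold change of 0.35 (SE 0.10) that did not pass the test (adjusted p = 0.0537, but 0.0489 with at least 10 counts in every sample).

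XBP1 encodes the transcription factor whose mRNA IRE1 splices, and counts per gene do not separate the spliced from the unspliced form. It was at 396 and 349 CPM in DMSO, 256 and 332 after compound 4, 266 and 339 after compound 5, and 395 and 356 after compound 6. The compound 4 and 5 samples were below both DMSO samples, yet in each of these groups replicate 2 lay near the lower DMSO sample. The log2 fold change was -0.30 with compound 5 (SE 0.15, adjusted p = 0.157) and -0.34 with compound 4 (SE 0.15, adjusted p = 0.177, but 0.0498 without the filter), neither past the test. With compound 6 it was 0.01 (95% interval from -0.33 to 0.34).

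**Figure D2:**
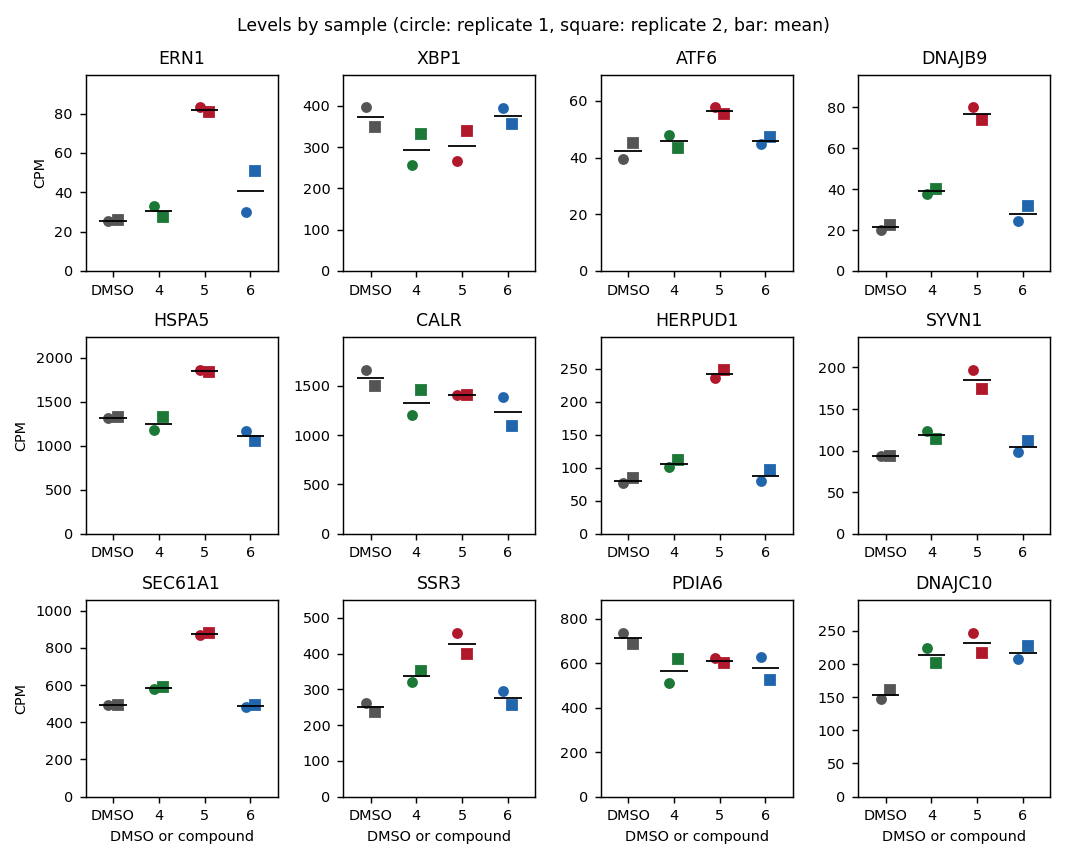
CPM of 12 of the genes in each sample, with DMSO and compounds 4, 5 and 6 on the horizontal axis of each panel, circles for replicate 1, squares for replicate 2 and bars for the group mean. The compound 5 samples are the highest for ERN1, ATF6, DNAJB9, HSPA5, HERPUD1, SYVN1, SEC61A1 and SSR3, whereas for XBP1, CALR and PDIA6 they are not.

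Among the 11 chaperones and co-chaperones, 4 rose with compound 5 (36.4%, beside 13.9% of all genes called higher) and 7 did not pass the test. HSPA5, the HSP70 of the endoplasmic reticulum also called BiP (ENSG00000044574, chr9:125234853-125241330), was at 1311 and 1322 CPM in DMSO, 1175 and 1329 after compound 4, 1860 and 1839 after compound 5, and 1166 and 1051 after compound 6. Only the compound 5 samples were above DMSO by more than the spread of the replicates, with a log2 fold change of 0.49 (SE 0.10, adjusted p = 0.0063), a 1.41-fold increase. Without DMSO replicate 1 the adjusted p was 0.0514. HYOU1, which exchanges the nucleotide on HSPA5, was at 421 and 416 CPM in DMSO, 455 and 473 after compound 4, 638 and 605 after compound 5, and 406 and 412 after compound 6, and rose by 0.57 with compound 5 (SE 0.09, adjusted p = 0.0016). Both compound 5 samples were above the 6 others.

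DNAJB9, a J-domain partner of HSPA5 (ENSG00000128590, chr7:108569568-108574850), was at 20.2 and 22.6 CPM in DMSO, 37.5 and 40.2 after compound 4, 80.0 and 73.9 after compound 5, and 24.2 and 31.6 after compound 6. Its level with compound 5 was above that with compound 4, which in turn was above DMSO, and no 2 of these 3 groups overlapped. The log2 fold change was 1.84 with compound 5 (SE 0.14, adjusted p = 5.75e-05) and 0.86 with compound 4 (SE 0.14, adjusted p = 0.0041). With compound 6 it was 0.39 (SE 0.15, adjusted p = 0.168). CANX, the membrane-bound lectin chaperone calnexin, was at 1234 and 1279 CPM in DMSO, 1369 and 1246 after compound 4, 1860 and 1695 after compound 5, and 1268 and 1259 after compound 6. It rose with compound 5 by 0.50 (SE 0.10, adjusted p = 0.0049), with both samples above all others.

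The other 7 chaperones were not called with compound 5. HSP90B1, the HSP90 of the endoplasmic reticulum, was at 1257 and 1304 CPM in DMSO, 1096 and 1187 after compound 4, 1428 and 1483 after compound 5, and 1152 and 1065 after compound 6. Its log2 fold change with compound 5 was 0.18 (95% interval from -0.03 to 0.40, adjusted p = 0.181), so that an increase of the size seen for HSPA5 lay outside the interval. CALR, the soluble partner of calnexin, was at 1661 and 1498 CPM in DMSO and 1404 and 1412 after compound 5 (log2 fold change -0.17, adjusted p = 0.386). SDF2L1, CRELD2, MANF, DNAJC3 and DNAJB11 had log2 fold changes between -0.23 and 0.22 after compound 5, and none passed the test. DNAJB11, another J-domain partner of HSPA5, was at 96.5 and 103 CPM in DMSO and 65.8 and 78.5 after compound 4, and it was the 1 gene called lower with compound 4 (log2 fold change -0.47, SE 0.12, adjusted p = 0.0316). DNAJC3 had a log2 fold change of -0.48 with compound 4 (SE 0.14) that did not pass the test (adjusted p = 0.0522). It was called lower by DESeq2 (0.0390), with scaling by library size alone (0.0433), with at least 10 counts in every sample (0.0445) and without the filter (0.0071).

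Of the 7 genes of oxidative folding, which form, break or rearrange disulfide bonds, 3 rose with compound 5 (42.9%, beside 13.9% of all genes called higher). ERO1B, an oxidase that recharges protein disulfide isomerases, had a low level of 4.23 and 3.70 CPM in DMSO, 5.47 and 5.54 after compound 4, 8.34 and 7.85 after compound 5, and 4.38 and 6.67 after compound 6. Its log2 fold change with compound 5 was 1.03 (SE 0.23, adjusted p = 0.0090), and the call was lost without compound 5 replicate 1 (adjusted p = 0.0533) and without DMSO replicate 2 (0.0656). Its paralogue ERO1A had a log2 fold change of -0.29 (SE 0.10, adjusted p = 0.0618), and was called lower with scaling by library size alone (-0.39, adjusted p = 0.0182) and in the fit of the compared groups alone (-0.26, adjusted p = 0.0387).

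DNAJC10, a disulfide reductase with a J domain (ENSG00000077232, chr2:182716041-182794464), was at 147 and 161 CPM in DMSO, 225 and 202 after compound 4, 247 and 217 after compound 5, and 207 and 227 after compound 6. All 6 treated samples were above both DMSO samples. It was called higher with each compound, by 0.47 on the log2 scale with compound 4 (SE 0.11, adjusted p = 0.0221), 0.59 with compound 5 (SE 0.11, adjusted p = 0.0039) and 0.49 with compound 6 (SE 0.11, adjusted p = 0.0370). These comparisons share the same DMSO samples, so they are not independent of each other. When replicate number entered the model as a block, compound 6 gave 0.0518. The call for compound 6 was also lost without DMSO replicate 1 (0.241) or 2 (0.167), without compound 5 replicate 1 (0.0579) or 2 (0.0583), and without compound 6 replicate 2 (0.314). The call for compound 4 was lost without DMSO replicate 1 (0.158) or 2 (0.0940) and without compound 4 replicate 1 (0.0621).

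P4HB, the protein disulfide isomerase PDI, was at 2516 and 2323 CPM in DMSO, 2570 and 2840 after compound 4, 2930 and 3068 after compound 5, and 2488 and 2331 after compound 6. The increase of 0.31 with compound 5 (SE 0.10) was close to the threshold (adjusted p = 0.0456), was not called with the replicate block (0.0602) or with scaling by library size alone (0.136), and was lost without either DMSO replicate (0.101 and 0.182) or either compound 5 replicate (0.0929 and 0.189). PDIA4 was at 783 and 747 CPM in DMSO, 659 and 765 after compound 4, 880 and 891 after compound 5, and 696 and 608 after compound 6, and its log2 fold change with compound 5 was 0.21 (95% interval from -0.03 to 0.46). PDIA3 and PDIA6, of the same enzyme family, had log2 fold changes of 0.24 and -0.22 with compound 5 and were not called, although PDIA3 was in the fit of the compared groups alone (0.26, adjusted p = 0.0458).

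The genes of endoplasmic reticulum-associated degradation (ERAD), which recognizes misfolded proteins and moves them out for ubiquitination, held some of the largest changes. Of the 9 tested, 4 rose with compound 5 (44.4%, beside 13.9% of all genes called higher), and all 9 log2 fold changes were above 0. HERPUD1, a membrane protein that organizes the degradation complex (ENSG00000051108, chr16:56932048-56944863), was at 76.5 and 84.5 CPM in DMSO, 100.5 and 112 after compound 4, 236 and 248 after compound 5, and 79.1 and 96.2 after compound 6. The compound 5 samples were far above all others, with a log2 fold change of 1.59 (SE 0.12, adjusted p = 5.75e-05), a 3.00-fold increase. With compound 4 it was 0.40 (SE 0.12, adjusted p = 0.0571), and it was called in the fit with the block (0.0362), by DESeq2 (0.0373), without the filter (0.0259) and with at least 10 counts in every sample (0.0478).

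SYVN1, the ubiquitin ligase HRD1 of this pathway, was at 93.0 and 94.1 CPM in DMSO, 124 and 114 after compound 4, 197 and 174 after compound 5, and 97.9 and 111 after compound 6. It rose by 0.99 with compound 5 (SE 0.11, adjusted p = 2.78e-04), a 1.98-fold increase, and with compound 4 the log2 fold change was 0.35 (adjusted p = 0.0696). SEL1L, the adaptor of SYVN1, had a log2 fold change of 0.16 with compound 5 (95% interval from -0.14 to 0.46). The upper end of this interval was below the change of SYVN1.

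EDEM1, which marks glycoproteins for degradation by trimming mannose, was at 59.0 and 54.2 CPM in DMSO, 67.6 and 64.2 after compound 4, 95.2 and 82.6 after compound 5, and 65.0 and 64.8 after compound 6, and rose by 0.65 with compound 5 (SE 0.11, adjusted p = 0.0021). EDEM2 and EDEM3 had log2 fold changes of 0.18 and 0.34 after compound 5 and were not called. DERL1, a membrane component of the exit channel, was at 55.6 and 54.7 CPM in DMSO, 62.7 and 60.4 after compound 4, 75.4 and 74.7 after compound 5, and 58.6 and 57.1 after compound 6. It rose by 0.44 with compound 5 (SE 0.10, adjusted p = 0.0076), and the call was lost without DMSO replicate 1 (adjusted p = 0.0554) or 2 (0.0517). OS9, a lectin that delivers glycoproteins to SYVN1, was at 338 and 312 CPM in DMSO, 310 and 331 after compound 4, 348 and 320 after compound 5, and 304 and 303 after compound 6, and had the log2 fold change with compound 5 nearest to 0 among the 9 ERAD genes. The OS9 samples of DMSO and compound 5 overlapped (log2 fold change 0.04, 95% interval from -0.18 to 0.26).

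Of the 9 translocon genes, 6 rose with compound 5 (66.7%, beside 13.9% of all genes called higher). SEC61A1, the pore subunit of the channel (ENSG00000058262, chr3:128051641-128071683), was at 495 and 490 CPM in DMSO, 578 and 592 after compound 4, 870 and 881 after compound 5, and 480 and 492 after compound 6. It rose by 0.83 with compound 5 (SE 0.09, adjusted p = 2.34e-04), a 1.78-fold increase, with close replicates. The small channel subunits SEC61B and SEC61G had log2 fold changes of 0.34 and 0.25 (adjusted p = 0.0898 and 0.244), and SEC61B was called in the fit of the compared groups alone (0.37, adjusted p = 0.0073) and without the filter (0.0341). SEC61G was at 85.4 and 77.4 CPM in DMSO, 80.6 and 104 after compound 4, 109 and 84.7 after compound 5, and 78.1 and 70.1 after compound 6, and its compound 5 samples overlapped those of DMSO.

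SEC62 and SEC63 assist the import of proteins after their translation. SEC63 was at 96.3 and 99.0 CPM in DMSO, 106 and 94.2 after compound 4, 178 and 148 after compound 5, and 93.5 and 95.4 after compound 6, and rose by 0.74 with compound 5 (SE 0.12, adjusted p = 0.0014). SEC62 rose by 0.69 (SE 0.11, adjusted p = 0.0014). Both compound 5 samples of SEC63 were above all other samples, which lay close together.

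SSR1 to SSR4 encode the translocon-associated TRAP complex. SSR1 was at 367 and 371 CPM in DMSO, 446 and 438 after compound 4, 684 and 576 after compound 5, and 396 and 371 after compound 6. It rose by 0.77 with compound 5 (SE 0.11, adjusted p = 7.37e-04), and SSR2 rose by 0.64 (SE 0.12, adjusted p = 0.0037). SSR3 was at 263 and 236 CPM in DMSO, 320 and 353 after compound 4, 458 and 398 after compound 5, and 294 and 257 after compound 6. It was higher with compound 5 by 0.78 (SE 0.12, adjusted p = 0.0011) and with compound 4 by 0.43 (SE 0.12, adjusted p = 0.0389). SSR4 was at 109 and 89.9 CPM in DMSO, 125 and 142 after compound 4, 116 and 120 after compound 5, and 105 and 98.7 after compound 6, so that compound 4 and not compound 5 had the highest level. Its log2 fold change was 0.42 with compound 4 (SE 0.12, adjusted p = 0.0468, and 0.0609 with the replicate block) and 0.25 with compound 5 (SE 0.12, adjusted p = 0.147), and the direct difference between the compounds was -0.17 (95% interval from -0.44 to 0.09). The compound 4 calls of SSR3 and SSR4 were lost without DMSO replicate 1 (adjusted p = 0.0967 and 0.0555) or 2 (0.274 and 0.359), without compound 4 replicate 2 (0.0977 and 0.137) and without compound 5 replicate 2 (0.0553 and 0.0808), and that of SSR4 without compound 5 replicate 1 (0.0758). Both were also lost with scaling by library size alone (0.0518 and 0.0595) and in the fit of the compared groups alone (0.0638 and 0.105).

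Of the 3 signal peptidase subunits, SPCS2 rose with compound 5 (33.3%, beside the same 13.9%). It was at 141 and 136 CPM in DMSO, 133 and 157 after compound 4, 192 and 176 after compound 5, and 117 and 108 after compound 6, and its log2 fold change with compound 5 was 0.41 (SE 0.11, adjusted p = 0.0214). The call was lost without either DMSO replicate (adjusted p = 0.0900 and 0.104), without either compound 5 replicate (0.117 and 0.0576) and with scaling by library size alone (0.0594). SPCS1 was at 86.9 and 85.1 CPM in DMSO, 79.9 and 99.9 after compound 4, 69.5 and 77.6 after compound 5, and 85.8 and 73.1 after compound 6. Its compound 5 samples were below both DMSO samples, with a log2 fold change of -0.22 that did not pass the test (SE 0.13, adjusted p = 0.228). SPCS3 had a log2 fold change of 0.29 (adjusted p = 0.0704), and was called in the fit of the compared groups alone (0.32, adjusted p = 0.0252).

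**Figure D3:**
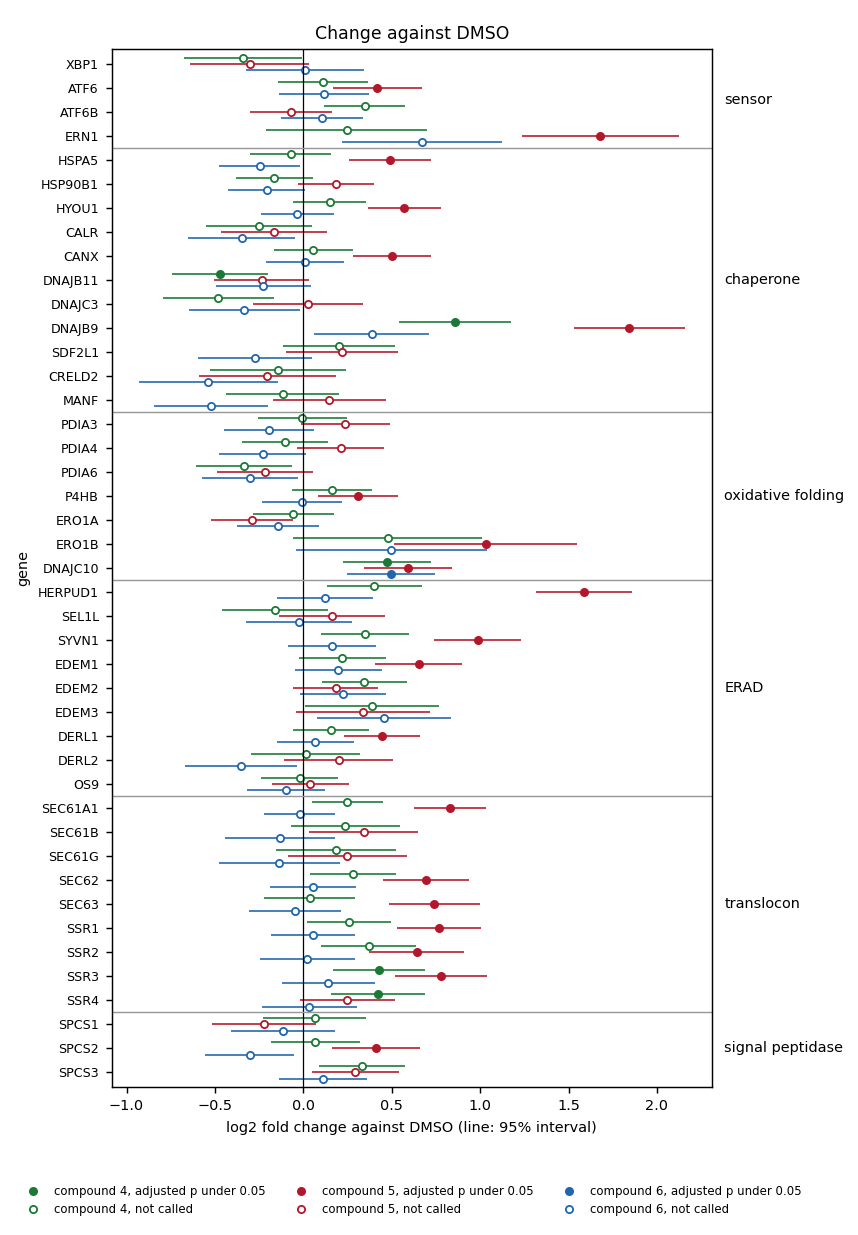
Log2 fold change of the 43 tested genes against DMSO for compounds 4, 5 and 6, with points for the estimate, lines for the 95% interval and filled points for an adjusted p under 0.05. The 20 filled points of compound 5 are all right of 0, compound 4 has 5 filled points and compound 6 has 1.

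The calls with compound 5 depended on single samples and on scaling in part. Of the 20 genes, 14 were called under all 7 alternative settings that kept every replicate of the groups compared and in all 8 fits that left out 1 sample. Between 15 and 22 genes were called higher in the fits that left out 1 sample, in which the calls among all genes ranged from 1680 to 4519, and 17 higher and 1 lower with scaling by library size alone, which moved the median of all genes by -0.10 on the log2 scale and the share of higher calls among all called genes from 49.3% to 33.3%. Some reads cannot be assigned with certainty, since 21.7% of the 31-base words of PDIA3, 18.7% of those of HSPA5, 18.5% of SPCS2, 16.9% of ATF6B and 15.2% of HSP90B1 also occur in other annotated genes.

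With compound 4, DNAJB9, DNAJC10, SSR3 and SSR4 were higher and DNAJB11 was lower, as described with their values. Of the 43 tested genes, 29 had a log2 fold change above 0, the median was 0.16 beside 0.00 over all genes, and 14 genes higher (32.6%) and 4 lower (9.30%) had an unadjusted p under 0.05, beside 13.8% and 13.2% of all genes. All 9 translocon genes were above 0, between 0.04 and 0.43, and chaperones were between -0.48 and 0.86. The number of genes called higher fell from 4 to 1 without DMSO replicate 1 and to 1 without DMSO replicate 2, and was 2 without compound 4 replicate 2 and 2 without compound 5 replicate 2. The calls among all genes were 663, 335, 1346 and 1269 in these fits, from 1598 with all samples. DNAJB11 was not called without DMSO replicate 1 (adjusted p = 0.0973) or 2 (0.214), compound 4 replicate 1 (0.102), or compound 5 replicate 1 (0.0630) or 2 (0.0570), nor in the fit of the compared groups alone (0.0566).

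With compound 6, DNAJC10 was the 1 gene called, and the median log2 fold change was -0.02. At an unadjusted p under 0.05, 4 genes were higher (9.30%) and 8 lower (18.6%), beside 10.5% and 9.5% of all genes. DESeq2 called 2 higher and 1 lower, beside 3.27% and 2.02% of all genes. Of the 11 chaperones, 2 had a log2 fold change above 0. MANF, a secreted stress-induced factor, was at 104 and 90.2 CPM in DMSO and 73.0 and 62.3 after compound 6, with a log2 fold change of -0.52 (SE 0.15, adjusted p = 0.0698) that DESeq2 called (adjusted p = 0.0270), as did the fit of the compared groups alone (0.0359) and the fit without the filter (0.0034). CRELD2, a stress-induced disulfide isomerase of the same compartment, had a log2 fold change of -0.54 (adjusted p = 0.116), and was called in the fit of the compared groups alone (0.0405) and without the filter (0.0053). The count of genes called higher was 0 without either DMSO replicate, without either compound 5 replicate and without compound 6 replicate 2, 2 without compound 4 replicate 2 and 3 without compound 6 replicate 1, and 2 genes were called lower without compound 4 replicate 1 or without compound 4 replicate 2. The calls among all genes, 590 with all samples, were 90 and 1 without DMSO replicates 1 and 2, 350 and 371 without those of compound 5, 1090 and 1096 without those of compound 4, and 1001 and 49 without those of compound 6.

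The compounds were then compared with each other. Their concentrations differed, since each was given at its own IC50, so that a difference between compounds cannot be told apart from a difference in dose. Over 3 pairs of compounds, each adjusted over all 13404 genes, compound 5 against compound 4 gave 14 members higher and 1 lower (34.9% of those tested, beside 13.9% of all genes, 6.91% higher and 7.04% lower). Compound 5 against compound 6 gave 21 higher and 0 lower (48.8% beside 9.91% of all genes, 4.76% higher and 5.16% lower), and 28 higher (65.1%) and 0 lower at an unadjusted p under 0.05, beside 13% and 14.5% of all genes. Compound 4 against compound 6 gave 0 calls beside 0.0448% of all genes, 0.0224% in each direction. There edgeR gave 13 members higher (30.2%) and 1 lower (2.33%) at an unadjusted p under 0.05, beside 5.24% and 4.57% of all genes, and DESeq2 called 0 members, beside 0.328% of all genes higher and 0.188% lower. The number of calls between compounds 5 and 4 was 3 without compound 5 replicate 1 and 6 without compound 5 replicate 2, while the calls among all genes fell from 1869 to 111 and 167. Between compounds 5 and 6 it was 5 and 11 without these samples, with calls among all genes falling from 1329 to 143 and 278, and 10 and 12 without replicate 1 and replicate 2 of compound 6 (211 and 1016 among all genes).

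The largest of these differences were those of ERN1, DNAJB9 and HERPUD1. ERN1 was higher with compound 5 than with compound 4 by 1.44 (SE 0.20, adjusted p = 0.0051) and than with compound 6 by 1.01 (SE 0.19, adjusted p = 0.0121). DNAJB9 was higher by 0.98 (SE 0.14, adjusted p = 0.0051) and 1.46 (SE 0.14, adjusted p = 5.65e-04), and HERPUD1 by 1.19 (SE 0.12, adjusted p = 0.0021) and 1.46 (SE 0.12, adjusted p = 2.66e-04). HSPA5 was higher than with compound 4 by 0.56 (adjusted p = 0.0104) and than with compound 6 by 0.74 (adjusted p = 0.0039). HSP90B1, which was not called against DMSO, was higher with compound 5 than with compound 6 by 0.39 (adjusted p = 0.0334) and than with compound 4 by 0.35 (adjusted p = 0.0418, and 0.0538 in the blocked fit). The HSP90B1 levels with compounds 4 and 6 were below those of DMSO in both replicates.

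Some genes differed with compound 5 from 1 other compound only by these thresholds, and the difference between those contrasts was not tested. ATF6B was lower with compound 5 than with compound 4, by 0.42 on the log2 scale (log2 fold change -0.42, adjusted p = 0.0275), and DNAJC3, a J-domain protein that restrains PERK, was higher by 0.50 (adjusted p = 0.0420). Against DMSO, DNAJC3 had a log2 fold change of 0.02 with compound 5 and of -0.48 with compound 4. Its difference between these compounds thus lay in the lower level with compound 4. Against compound 6, MANF was higher by 0.67 (adjusted p = 0.0188), DERL2 by 0.55 (adjusted p = 0.0362), PDIA4 by 0.44 (adjusted p = 0.0339), PDIA3 by 0.43 (adjusted p = 0.0410, and 0.0557 with the replicate block) and SPCS2 by 0.71 (adjusted p = 0.0057). For DNAJC10 no difference between compounds was detected, and the intervals were -0.13 to 0.37 for compound 5 against 4, -0.15 to 0.34 for 5 against 6, and -0.27 to 0.22 for 4 against 6. For CALR the difference of compound 5 was 0.08 from compound 4 (95% interval from -0.22 to 0.38) and 0.18 from compound 6 (from -0.12 to 0.48).

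Compounds 4 and 6, which share the methylene bridge and differ in the tert-butyl or cyclohexyl groups, had none of the 43 genes past the threshold. The 2 largest values in favour of compound 4 were SDF2L1 with 0.48 (95% interval from 0.16 to 0.80, adjusted p = 0.369) and DNAJB9 with 0.47 (0.16 to 0.78, adjusted p = 0.359). The largest in favour of compound 6 was ERN1, with -0.43 (-0.87 to 0.02, adjusted p = 0.523). The intervals leave room for differences of this size in either gene, so the levels are not shown to be alike.

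**Figure D4:**
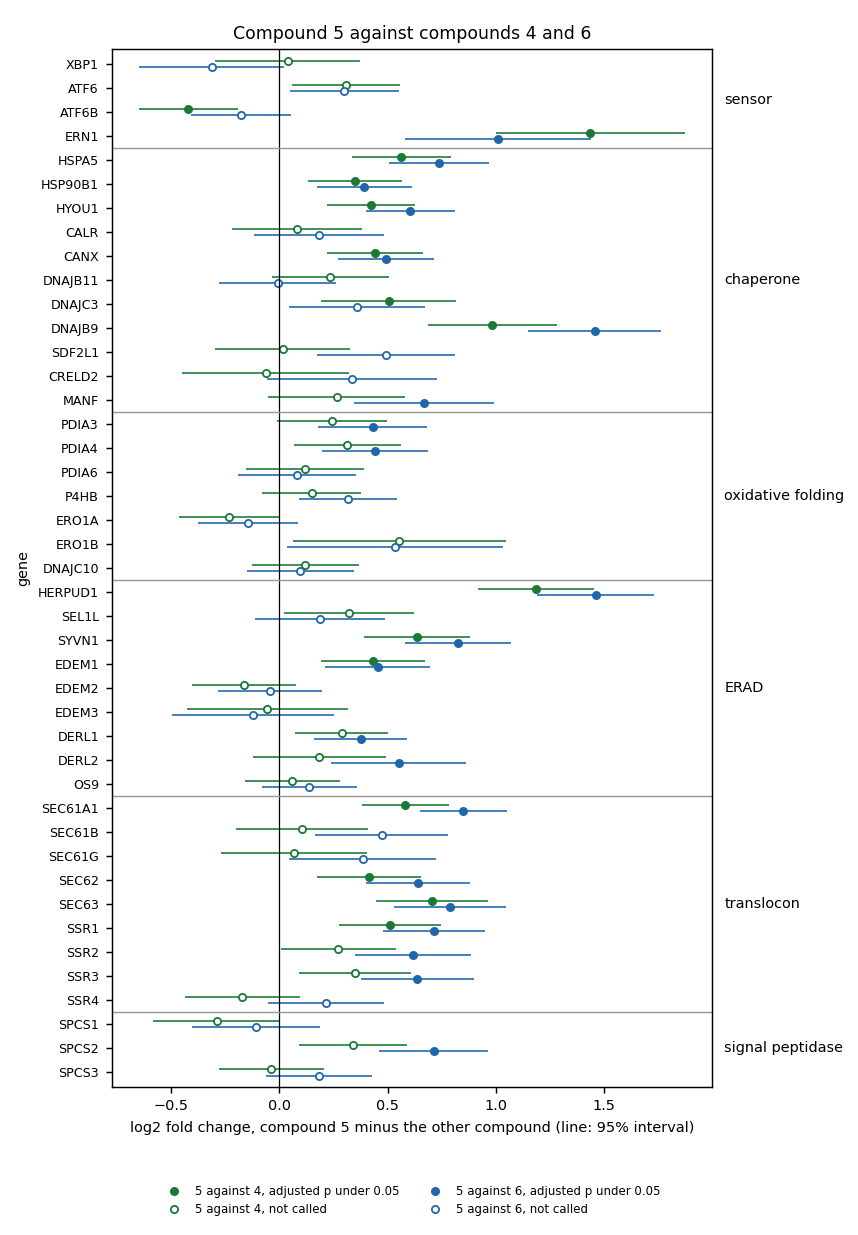
Log2 fold change of the 43 tested genes with compound 5 against compound 4 and against compound 6, with points for the estimate, lines for the 95% interval and filled points for an adjusted p under 0.05. ERN1, DNAJB9 and HERPUD1 lie farthest right of 0, and ATF6B is the filled point left of 0.

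A further list of 72 endoplasmic reticulum genes was measured, all of which passed the filter. With compound 5, 28 of them were called higher (38.9%, beside the 13.9% of all genes) and 5 lower (6.94%, beside the 14.2%). Of the 6 genes listed for the PERK branch, which slows translation through phosphorylation of eIF2 and acts through ATF4, 5 were higher (83.3%, beside 13.9% of all genes). The activity of PERK and the phosphorylation of eIF2 were not measured. EIF2AK3, the gene of PERK, was at 33.7 and 33.8 CPM in DMSO and 39.3 and 34.9 after compound 4. It was at 76.8 and 63.7 after compound 5 and at 34.2 and 40.2 after compound 6. DDIT3, the transcription factor CHOP, was at 10.3 and 6.25 CPM in DMSO, 19.9 and 20.4 after compound 4, 56.7 and 56.9 after compound 5, and 13.9 and 24.6 after compound 6, so that all treated samples were above DMSO. It rose by 2.79 with compound 5 (SE 0.26, adjusted p = 1.09e-04), by 1.30 with compound 4 (SE 0.27, adjusted p = 0.0118) and by 1.24 with compound 6 (SE 0.27, adjusted p = 0.0318, and 0.0507 with the replicate block).

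PPP1R15A, the subunit that directs dephosphorylation of eIF2, was at 29.6 and 25.9 CPM in DMSO, 56.4 and 53.6 after compound 4, 168 and 199 after compound 5, and 34.7 and 74.3 after compound 6. It rose by 2.73 with compound 5 (SE 0.27, adjusted p = 1.52e-04) and by 0.99 with compound 4 (SE 0.27, adjusted p = 0.0382). TRIB3, a pseudokinase induced by CHOP, was at 209 and 173 CPM in DMSO, 256 and 292 after compound 4, 554 and 681 after compound 5, and 271 and 421 after compound 6, and rose by 1.69 with compound 5 (SE 0.19, adjusted p = 2.91e-04) and by 0.86 with compound 6 (SE 0.19, adjusted p = 0.0342). ATF4 itself was at 407 and 407 CPM in DMSO, 505 and 574 after compound 4, 697 and 762 after compound 5, and 525 and 648 after compound 6, and rose by 0.84 with compound 5 (SE 0.12, adjusted p = 8.91e-04) and by 0.53 with compound 6 (SE 0.12, adjusted p = 0.0381). With compound 4 its log2 fold change was 0.41 (adjusted p = 0.0538, and 0.0400 with the replicate block). For DDIT3, PPP1R15A and TRIB3 the compound 6 replicates were far apart, as they were for ERN1.

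Of the 16 further ERAD genes, 10 rose with compound 5 and 0 fell (beside 13.9% and 14.2% of all genes), with log2 fold changes between -0.17 and 1.15 over the 16. HM13, a signal peptide peptidase, was at 384 and 341 CPM in DMSO, 513 and 574 after compound 4, 689 and 676 after compound 5, and 407 and 401 after compound 6, and was the third further gene called with compound 4 (log2 fold change 0.58, SE 0.10, adjusted p = 0.0059). It stood in an order of compound 5 over compound 4 over DMSO, as did DNAJB9, HYOU1, HERPUD1, SYVN1, SEC61A1, SSR1 and other members. The number of further genes called with compound 5 was 19 without DMSO replicate 1, 20 without DMSO replicate 2 and 19 without compound 5 replicate 1, while the calls among all genes fell from 3763 to 1685, 2007 and 1680. With compound 4 the number was 3 (4.17%, beside the 11.9% of all genes), and it was 0 without DMSO replicate 2, 9 without compound 4 replicate 1 and 5 without either compound 6 replicate, with 335, 1662, 1693 and 1703 calls among all genes in these fits. With compound 6 it was also 3 (4.17%, beside the 4.4% of all genes), and it was 0 without either DMSO replicate, without compound 5 replicate 1 or without compound 6 replicate 2, 1 without compound 5 replicate 2, and 5 without either compound 4 replicate, in the fits whose calls among all genes ranged from 1 to 1096 as given above.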

How the data were processed

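RNA of the 8 samples was sequenced by the authors from strand-specific libraries after mRNA isolation. The authors checked reads with FastQC 0.12.0, estimated transcript abundance with Salmon 1.5.0 on the GENCODE transcriptome and summed it per gene with tximeta. The table deposited by the authors holds expected counts as whole numbers, not normalized. The authors used DESeq2 1.38.3. Here the test was the quasi-likelihood F-test in edgeR 4.0.16 under R 4.3.3, with TMM scaling, the filterByExpr filter and all 8 samples in one fit, because the groups then share one estimate of the spread. P-values were adjusted over all 13404 genes that passed, with a cutoff of 0.05. CPM are scaled by TMM, whose factors lay between 0.958 and 1.04. The SE is the log2 fold change over the root of F. In a simulation of compound 5 against DMSO with 200 genes shifted by a log2 value of 1, drawn 5 times, 72.3% of the shifted genes were recovered and 5.74% of calls were false. In the data 3763 genes were called in this comparison, and some called members changed by less, such as P4HB by 0.31. These shares therefore do not carry over to smaller changes or to this list.

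Within each group the replicates were further apart than sampling noise allows (chi-square over its degrees of freedom between 5.70 and 18.0), so none was treated as a repeat deposit of one library. This does not show that they are independent cultures. The day in the labels pairs the replicates, and deviations of same-numbered samples correlated between -0.083 and 0.16 across genes. The replicate number was used as a block in an alternative fit. Other alternatives were RLE scaling, scaling by library size, DESeq2 1.42.0, no filter, at least 10 counts in every sample, only the groups compared, a cutoff of 0.01 and leaving out each sample. Promoter windows came from RefSeq on GRCh38.p14, and gene coordinates and shared 31-base words from GENCODE 29 on GRCh38. No window was found for PDIA3, DERL1, DERL3 and SPCS1.

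Values per sample are given for the sensors and HSPA5, for up to 4 genes per functional group with the largest change among those called against DMSO, and for the gene with the smallest. Of the further list, up to 3 called genes at either end of the changes were named for each compound. CALR, DNAJB11, MANF and SSR4, shown with values per sample, and other further genes were added after their values had been seen. Promoters were printed for 4 genes with an ERSE or ERSE-II and the largest change. The genes, lists and tests were chosen with earlier results of these data known. Tests on ranks were not run, because no p under the cutoff can arise from 2 samples against 2.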

Additional observations from a re-analysis of the deposited data

How the results depend on the processing

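The replicate block took 1 call each from compounds 5 and 6 (P4HB and DNAJC10), and with compound 4 it took SSR4 and added HERPUD1. It left 0 members called with compound 6, beside 499 of all genes. Between compounds it took the calls of HSP90B1 (5 against 4) and PDIA3 (5 against 6), and it changed no other call of a member. Calls among all genes were 1598, 3763 and 590 with compounds 4, 5 and 6, and are given in brackets below. With scaling by library size alone, members called with compound 4 were 2 higher and 2 lower (1644), with compound 5 17 were higher and 1 lower (4076), and the median log2 fold change of the members was 0.21 with compound 5, 0.21 for compound 5 against compound 4 and 0.35 for compound 5 against compound 6. In the fit of only the groups compared, compound 4 gave 2 members higher and 0 lower (1270), compound 5 gave 23 higher and 1 lower (5049), compound 6 gave 1 higher and 2 lower (826), and compound 5 against compound 4 gave 9 calls (869). DESeq2 gave 6 members higher and 2 lower for compound 4 (1389), and for compound 6 gave 2 higher and 1 lower (712). Without the filter compound 4 gave 6 higher and 4 lower (2265), compound 6 gave 3 higher and 3 lower (1441), and 7 and 5 further genes were called with compounds 4 and 6. With at least 10 counts in every sample, 6 members were higher and 2 lower with compound 4 (1710). At a cutoff of 0.01, members called were 1 higher and 0 lower for compound 4 (591), for compound 5 17, all of them higher (1809), for compound 6 0 (92), 6 for compound 5 against compound 4 (279) and 10 for compound 5 against compound 6 (282), and further genes called were 1, 20 and 0 with compounds 4, 5 and 6. The cause of these changes was not tested beyond the construction of each setting.

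Leaving out 1 sample at a time, members called higher ranged from 1 to 6 with compound 4, 15 to 22 with compound 5 and 0 to 3 with compound 6, and lower from 0 to 2, 0 to 1 and 0 to 2. Further genes called ranged from 0 to 9, 19 to 38 and 0 to 5, and calls among all genes from 335 to 1703, 1680 to 4519 and 1 to 1096. Calls between compounds ranged from 3 to 15 for 5 against 4, 5 to 24 for 5 against 6 and 0 to 1 for 4 against 6, with calls among all genes from 111 to 2709, 143 to 1875 and 0 to 117. The median log2 fold change ranged from 0.13 to 0.18 with compound 4, 0.29 to 0.41 with compound 5, -0.061 to 0.0056 with compound 6 (0.0056 without compound 6 replicate 2, a change of sign), 0.20 to 0.37 for 5 against 4, 0.36 to 0.46 for 5 against 6 and 0.10 to 0.21 for 4 against 6. With 2 samples per group, the precision of each difference is given by its 95% interval. This interval rests on an estimate of the spread that all 4 groups share, not on the groups compared alone. For ERN1 the SE was thus 0.20 with compound 5 and with compound 6, although only the compound 6 replicates differed widely.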

Other observations

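Further genes serve the targeting of ribosomes to the endoplasmic reticulum. Of these 12 genes of targeting and translocation, 7 were called higher with compound 5 and 0 lower, beside 13.9% and 14.2% of all genes, and 7 had a log2 fold change above 0. SRPRB, a subunit of the receptor of the signal recognition particle, was at 96.6 and 89.2 CPM in DMSO and 169 and 165 with compound 5, a log2 fold change of 0.85 (SE 0.11, edgeR adjusted p = 6.36e-04). SRPRA, the other receptor subunit, rose by 0.73 (SE 0.10, edgeR adjusted p = 6.57e-04). SRP72, SRP68, SRP54 and SRP19, protein subunits of the particle, rose by 0.64, 0.39, 0.48 and 0.47 in the same test. SRP9 and SRP14, which form the subunit that pauses translation, were not called with compound 5 (edgeR adjusted p = 0.0697 for SRP9, at a log2 fold change of -0.37, and 0.0263 with the replicate block). SELENOS, a membrane selenoprotein of degradation, had a mean of 45.8 CPM in DMSO and 101 CPM with compound 5, a log2 fold change of 1.15 (SE 0.13, edgeR adjusted p = 2.86e-04).

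The 5 of 72 further genes called lower with compound 5 (6.94%, beside 14.2% of all genes) were folding, glycan and oligosaccharyltransferase genes. PDIA5, a protein disulfide isomerase, was at 82.9 and 75.4 CPM in DMSO and 56.0 and 51.8 with compound 5, and fell by 0.55 on the log2 scale (SE 0.11, edgeR adjusted p = 0.0049). PRDX4, a peroxiredoxin that uses hydrogen peroxide to oxidize disulfide isomerases, fell by 0.52 (SE 0.14, adjusted p = 0.0206). OST4, a small subunit of the enzyme that attaches N-glycans, fell by 0.45 (SE 0.15, adjusted p = 0.0455), whereas RPN1 and STT3A of the same enzyme rose by 0.60 and 0.44. TXNDC12 and GANAB fell by 0.43 and 0.42 in the same test. Of the 14 folding genes of this list, 3 fell (21.4%, beside 14.2% of all genes) and 1 rose (7.14%, beside 13.9%). The gene that rose was FKBP14, with a log2 fold change of 0.76 (SE 0.10, adjusted p = 6.83e-04).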
